A study of Mus musculus with 12 samples.

Results

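Of 46 genes of the meiotic chromosome and recombination programme, 3 had an H3K36ac peak near their start in spermatogonia-enriched cells, and 43 had none in any sample. The genes were taken as a fixed list of 47 names. The names matched 46 genes of the RefSeq table of GRCm38.p6, the assembly behind mm10, because *Ccdc36* is an older symbol of *Iho1*. They are 46 of the 21468 protein-coding genes whose strand was known, and a gene was counted as called in a sample when at least 1 bp of a peak of that sample lay within 3000 bp of the gene start. The cells came from testes of mice at postnatal day 5, with 50000 cells per sample enriched by differential plating, and the groups were 3 WT and 3 *Sirt7*-/- samples on the same inbred background, each sample from its own mouse. The *Sirt7*-/- mice lack SIRT7 in every cell, so somatic cells of the testis were also without it, and the plating enriches germ cells rather than purifying them. Replicates are numbered 2, 3 and 4 in both genotypes.

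Meiosis begins when spermatogonia leave mitotic division under STRA8 and its partner MEIOSIN, with the RNA-binding pair MEIOC and YTHDC2. Chromosomes then build axes on meiotic cohesin, SPO11 cuts DNA along them, DMC1 directs repair to the homologous chromosome, and the synaptonemal complex joins the homologues while some breaks mature into crossovers. At postnatal day 5 germ cells have not entered meiosis. H3K36ac is an acetyl mark of active promoters and a substrate of the deacetylase SIRT7. Many genes of the programme are known targets of E2F6, a DNA-binding repressor that keeps them silent in cells outside the germ line.

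The peak lists ran from 64 to 906 peaks in WT and from 2045 to 2840 in *Sirt7*-/- samples. Lists of such unequal length cannot be compared gene by gene without a yardstick, so each count of meiotic genes is given beside the share of all protein-coding starts called in the same list. The lists hold no read counts or coverage, the study's read totals per library were not used here, and a missing peak does not show that the mark was absent. Of 17 spermatogonial marker genes, 6 were called in at least 1 sample (35.3%, against 19.7% of all protein-coding starts), among them *Zbtb16*, which encodes PLZF, in 1 *Sirt7*-/- sample. Of 20 markers of testis somatic cells, 2 were called (10%, against the same 19.7%), *Sox9* and *Inha* of Sertoli cells. Each *Sirt7*-/- sample called 1 of the 20 (5.0%, against 9.73 to 13.2% of all starts) and the WT samples 0. *Sirt7*-/- replicate 3 and WT replicates 3 and 4 called 0 of the 17 spermatogonial genes. The marker lists also differ in promoter class, CpG-rich or CpG-poor as defined below. Of the genes with a promoter sequence, 5 of 13 spermatogonial and 1 of 8 somatic markers were CpG-rich. Among all protein-coding starts, 36% of CpG-rich and 6% of CpG-poor ones were called. The shares of 35.3% and 10% thus cannot be compared without regard to promoter class. Whether somatic cells contributed to any peak was not tested.

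Promoter windows of called genes are given first, and the called peaks extend beyond these windows. *Six6os1* and *Trip13* were called, and RefSeq promoter windows of GRCm38.p6, from 250 bases before to 50 after a transcript start, are printed with every CpG in capitals to show the density of this dinucleotide. The third called gene, *Ythdc2*, is named only.
*Six6os1*, chr12:72917716-72918015, minus strand: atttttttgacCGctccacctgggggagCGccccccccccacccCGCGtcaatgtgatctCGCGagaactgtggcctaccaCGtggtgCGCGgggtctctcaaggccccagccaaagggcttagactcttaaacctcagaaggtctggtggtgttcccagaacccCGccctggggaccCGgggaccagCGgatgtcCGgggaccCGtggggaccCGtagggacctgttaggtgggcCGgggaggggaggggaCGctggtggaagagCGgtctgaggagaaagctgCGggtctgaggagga
*Trip13*, chr13:73937718-73938017, minus strand: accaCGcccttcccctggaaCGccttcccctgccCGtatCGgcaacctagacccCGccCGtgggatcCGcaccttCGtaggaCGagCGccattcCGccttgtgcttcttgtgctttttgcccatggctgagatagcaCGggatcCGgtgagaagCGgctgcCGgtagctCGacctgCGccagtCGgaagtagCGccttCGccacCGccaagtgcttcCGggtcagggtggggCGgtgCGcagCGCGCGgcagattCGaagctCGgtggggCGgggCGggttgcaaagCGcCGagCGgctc
The *Six6os1* window held 19 CpG and the *Trip13* window 34, against a median of 25 in protein-coding promoters with a peak and of 9 in those without.

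*Six6os1* encodes a central element protein of the synaptonemal complex and is listed under the symbol *4930447C04Rik*, on the minus strand of chromosome 12 from 72880193 to 72917957. It had a peak in *Sirt7*-/- replicate 2 and in none of the other 5 samples. The peak ran from 72917331 to 72917950, inside the gene from 7 to 626 bp downstream of its start, with a fold over input of 3.79 by the authors' calling. It ranked 2011 of 2840 in that list by the authors' -log10 q of 1.64, in the weaker part of the list. It covered the curated transcript start, which lies 192 bp inside the outer gene start. No other gene start lay within 3000 bp of the peak.

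*Trip13* encodes the AAA ATPase that removes HORMAD proteins from synapsed axes, and lies on the minus strand of chromosome 13 from 73912450 to 73937795. The only call was again in *Sirt7*-/- replicate 2. That peak ran from 73937897 to 73938201, upstream of *Trip13* by 102 to 406 bp, with a fold over input of 3.92 and rank 1942 of 2840. It shared its position with *Brd9*, a bromodomain subunit of a BAF-type remodelling complex, whose start at 73937801 is 6 bp from that of *Trip13*. The peak lay wholly on the *Brd9* side of the shared start, so the call cannot be assigned to *Trip13*.

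*Ythdc2* encodes the RNA helicase that works with MEIOC at the switch from mitosis to meiosis, and it was the only member called in both genotypes. The WT replicate 2 peak lay from 817 to 1082 bp downstream of the gene start, with a fold over input of 4.63 and rank 358 of 906. In *Sirt7*-/- replicate 2 the peak spanned 295 to 1105 bp downstream, with a fold over input of 4.22 and rank 1436 of 2840. The WT peak lay within the span of the *Sirt7*-/- peak, and no other gene start was within 3000 bp of either. The 4 other samples had no peak there.

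**Figure D1:**
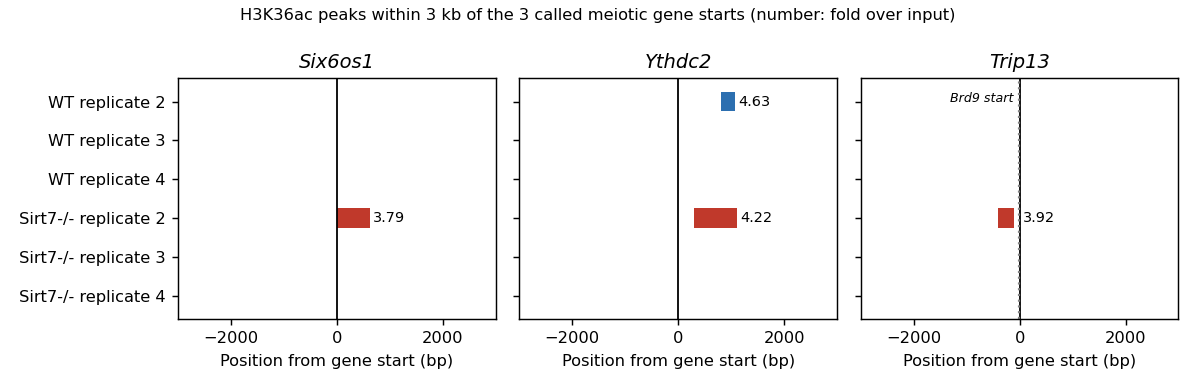
H3K36ac peaks around the starts of *Six6os1*, *Ythdc2* and *Trip13* in the 6 samples. The x axis is the position in bp from the gene start in the direction of transcription, bars are peaks (WT blue, *Sirt7*-/- red), numbers are the authors' fold over input, and the dotted line marks the *Brd9* start; all 4 peaks come from the samples numbered 2, and the *Trip13* peak lies upstream, on the *Brd9* side.

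The 3 calls made up 6.52% of the 46 genes (exact 95% confidence interval 1.37 to 17.9%, counting error only). Across all protein-coding starts, 19.7% were called in at least 1 sample by the same rule. Genes are not independent draws, and the difference was not tested. In *Sirt7*-/- replicate 2, 3 of the 46 genes were called, or 6.52%, where 13.2% of all protein-coding starts were. *Sirt7*-/- replicates 3 and 4 called 0 of the 46, which allows a share of up to 6.52%, where their lists covered 9.73% and 11.7% of all protein-coding starts. WT replicate 2 called 1 of the 46, or 2.17%, against 4.38% of all starts. WT replicates 3 and 4 called 0 of the 46, against 0.317% and 1.35% of all starts. At those shares, 0.146 and 0.621 of the 46 genes would be called. In every sample the share of meiotic genes called was below the share of all protein-coding starts called.

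Between genotypes, the number of members called differed by less than the spread between replicates. In replicates 2, 3 and 4 it was 3, 0 and 0 in *Sirt7*-/- and 1, 0 and 0 in WT samples, so the ranges overlapped. The WT mean was 0.333 ± 0.577 members (SD, n = 3), against a *Sirt7*-/- mean of 1.0 ± 1.73 members (SD, n = 3). All calls came from 2 samples. *Six6os1* and *Trip13* were called in *Sirt7*-/- replicate 2 and no other sample, as were 3.69% of all protein-coding starts. No member was called in at least 2 *Sirt7*-/- samples and no WT sample. That allows a share of up to 6.52%, and 6.47% of all protein-coding starts had this pattern. Fisher's exact test, two-sided, over the 6 samples gave p = 1 for each of the 46 genes, and Benjamini-Hochberg adjustment over the 21468 starts left each at an adjusted p = 1. With 3 samples in each genotype this exact test cannot go below p = 0.1, and 0 starts of the table passed 0.05 with or without adjustment.

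**Figure D2:**
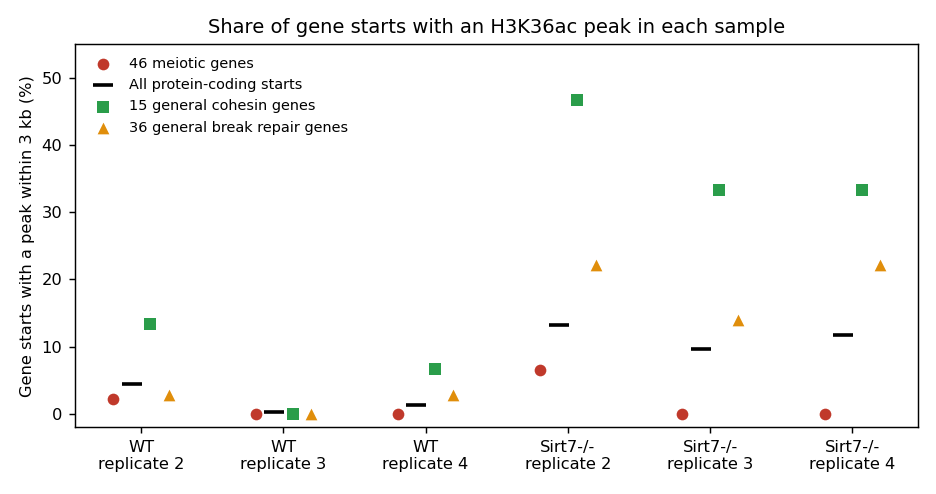
Share of gene starts with an H3K36ac peak within 3 kb, in % on the y axis, in each of the 6 samples on the x axis. Red circles are the 46 meiotic genes, black bars all 21468 protein-coding starts, green squares 15 general cohesin genes and orange triangles 36 general break repair genes; the red circles lie below the black bars in all 6 samples, and the green squares above them in all but WT replicate 3.

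The uncalled genes covered every step of the programme. Most protein-coding starts were also uncalled, since 19.7% of them had a peak in at least 1 sample. The groups below are small, and an absence of calls in 1 of them is not a result about that step. At meiotic entry, *Meioc* and *Meiosin*, listed as *Bhmg1*, were without a peak. All 4 meiotic cohesin genes were uncalled: the kleisins *Rec8* and *Rad21l*, *Stag3* and *Smc1b*. Of the 5 genes for axis proteins and their remodelling, *Sycp2*, *Sycp3*, *Hormad1* and *Hormad2* had none. In the synaptonemal complex, *Sycp1*, which encodes the transverse filament, and *Syce1*, *Syce2*, *Syce3* and *Tex12* of the central element had none. The 8 genes for break formation were uncalled, namely *Spo11* and its partner *Top6bl*, the accessory genes *Rec114*, *Mei1*, *Mei4*, *Iho1* and *Ankrd31*, and *Prdm9*, whose product marks the sites of breaks. So were the 7 genes of strand exchange, *Dmc1*, *Psmc3ip*, *Mnd1*, *Meiob*, *Spata22*, *Brme1* and *Hsf2bp*, and the 7 of crossover formation, *Msh4*, *Msh5*, *Mlh3*, *Hfm1*, *Rnf212*, *Cntd1* and *Hei10*, listed as *Ccnb1ip1*. The 5 genes that attach telomeres to the nuclear envelope, *Majin*, *Terb1*, *Terb2*, *Sun1* and *Kash5*, and the transposon-silencing gene *Mael* completed the 43.

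Distances to peaks came next. The median distance from a start to the nearest peak of any sample was 91602 bp for the 46 genes and 94339 bp for 21215 protein-coding starts, which leaves out 253 on chromosome Y, where no list had a peak. Among starts without a call it was 103556 bp for the 43 genes and 151085 bp for all. Closest beyond the 3000 bp window was *Stag3*, with a *Sirt7*-/- replicate 2 peak at the start of *6330418K02Rik*, 8576 bp from the outer gene start and 16571 bp from the curated transcript start. *Mei1* was 22540 bp from a peak at *Snu13* by its outer start but 34942 bp by its curated start, which puts it behind *Spo11*, *Terb1* and *Rec8*. *Spo11* was 22821 bp from a peak at *Rae1*. The peak nearest to *Terb1* was 24267 bp away at *Nae1* and *Car7*, and that nearest to *Rec8* was 25008 bp away at *Tm9sf1* and *Tssk4*. In each of these 5 cases the nearest peak was in a *Sirt7*-/- sample and lay at the start of a gene outside the list. The farthest were *Sycp2*, *Msh4* and *Hei10*, with no peak within 1000000 bp. Of the 43 genes, only *Top6bl* had a peak in its body: a *Sirt7*-/- replicate 3 peak on chromosome 19 from 4625509 to 4626221, at the far end of the gene, which covered the start of *Rce1*, a protease gene, at 4625645.

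**Figure D3:**
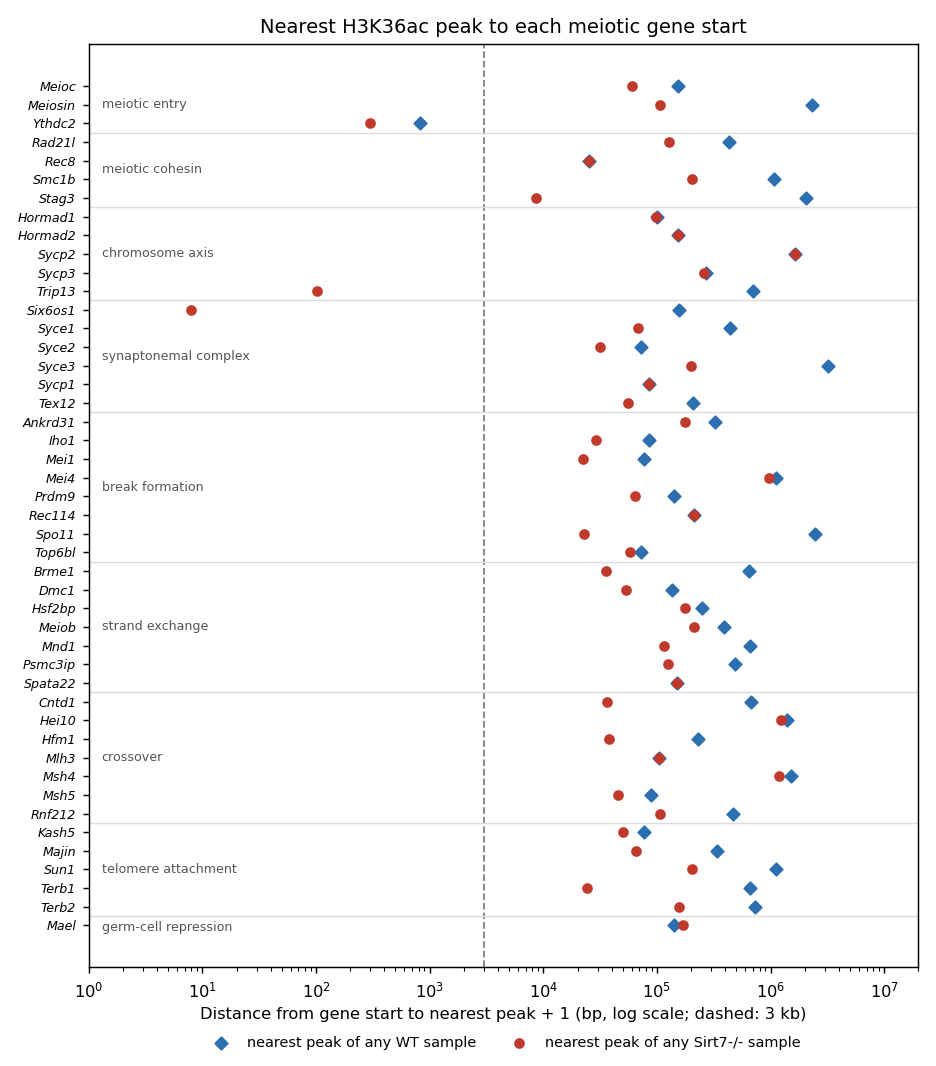
Distance from each of the 46 gene starts to the nearest H3K36ac peak, plus 1 bp, on a log x axis, with genes on the y axis grouped by role. Red circles give the nearest peak of any *Sirt7*-/- sample, blue diamonds that of any WT sample, and the dashed line is 3 kb; 3 genes have a circle within 3 kb and 1 of them, *Ythdc2*, also a diamond. Circles lie left of diamonds for all genes but *Sycp1* and *Mael*, and the *Sirt7*-/- lists are also the longer ones.

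Some meiotic genes have an outer start close to that of another gene. Of 2418 protein-coding starts with another protein-coding start within 1000 bp, 42.1% were called in at least 1 sample. Of the 46 genes, 8 had such a partner, and 1 of these, *Trip13* with *Brd9*, was called. The other 7 partners had no peak in any sample: *Gal3st4* beside *Stag3*, *Ribc2* beside *Smc1b*, *Hcn4* beside *Rec114*, *Aspa* beside *Spata22*, *Cc2d1a* beside *Brme1*, *Coa3* beside *Cntd1* and *Patl2* beside *Terb2*. These partners start 83 to 543 bp from the member, and the call window is 3000 bp. Their lack of a call thus nearly follows from that of the members and is not a separate observation. From their curated transcript starts, *Rec114* and *Spata22* had no partner within 1000 bp, and the partner of *Stag3* was *Gpc2* in place of *Gal3st4*.

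Most of the meiotic promoters were CpG-rich. A RefSeq window was held for 41 of the 46 genes, all but *Ythdc2*, *Spo11*, *Meiob*, *Majin* and *Terb2*. For 4 of the 41, *Stag3*, *Rec114*, *Mei1* and *Spata22*, the window lies over 3000 bp from the outer gene start used for the calls. Their median ratio of observed to expected CpG was 0.704, between the 0.855 of protein-coding promoters with a peak and the 0.439 of those without. Taking a ratio of at least 0.6 and a GC content of at least 50% as CpG-rich, 27 of the 41 windows qualified (65.9%), against 45.8% of 17492 protein-coding windows. Among CpG-rich protein-coding starts 36% were called in at least 1 sample. Of the 27 CpG-rich meiotic starts, 1 was called, *Trip13*, or 3.70% (exact 95% confidence interval 0.0937 to 19.0%). Among CpG-poor starts the shares were 6.16% of all and 1 of 14 members, *Six6os1*, whose ratio of 0.597 was just under the limit. The difference between the members and other CpG-rich starts was not tested.

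**Figure D4:**
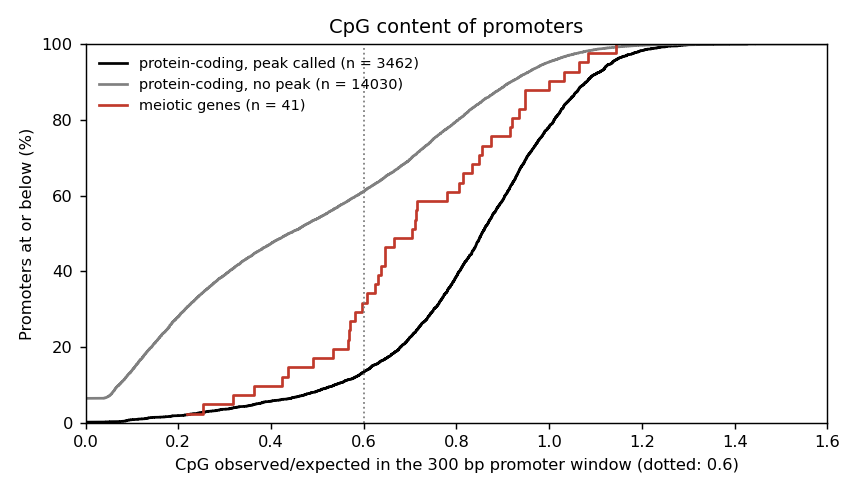
Cumulative share of promoters, in % on the y axis, by the ratio of observed to expected CpG in the 300 bp window on the x axis. Lines are protein-coding promoters with a peak (black), those without (grey) and the 41 meiotic promoters (red); the red line runs between the others, with medians of 0.855, 0.439 and 0.704 in that order, and the dotted line is 0.6.

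Motifs were searched in the same windows on both strands. The letters TCCCGC, the core of sites bound by E2F factors, were in 25 of the 41 meiotic windows (61.0%) and in 25.8% of all protein-coding windows. They were in 41.3% of the windows with a peak. None of the 25 meiotic genes with the motif was called, where 31.7% of all protein-coding starts with the motif were called in at least 1 sample. The E-box CACGTG was in 11 meiotic windows (26.8%) against 7.91% of all. The letters CCTCAG, part of the sequence bound by STRA8 with MEIOSIN, were in 17 (41.5%) against 26.7%. TCCCGC and CACGTG each contain a CpG, and 3624 of the 4506 protein-coding windows with TCCCGC were CpG-rich, so motif and CpG content are not separate features. Of the 22 members with both a CpG-rich window and TCCCGC, 0 were called, which allows a share of up to 13.6%, against 36.7% of all such starts.

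The next windows, of GRCm38.p6 from RefSeq, show TCCCGC or its reverse complement in capitals in 3 uncalled members with different roles, *Sycp3* of the axis, the cohesin gene *Smc1b* and the crossover helicase gene *Hfm1*, and in *Smc3*, a cohesin gene that all dividing cells use and that was called in 4 samples.
*Sycp3*, chr10:88459337-88459636, plus strand: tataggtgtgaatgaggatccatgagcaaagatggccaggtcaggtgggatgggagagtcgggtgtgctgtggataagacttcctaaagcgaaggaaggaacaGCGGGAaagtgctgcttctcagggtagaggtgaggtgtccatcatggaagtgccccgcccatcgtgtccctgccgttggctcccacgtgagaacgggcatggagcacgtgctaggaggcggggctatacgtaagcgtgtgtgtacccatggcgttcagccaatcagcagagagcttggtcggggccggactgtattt
*Smc1b*, chr15:85131908-85132207, minus strand: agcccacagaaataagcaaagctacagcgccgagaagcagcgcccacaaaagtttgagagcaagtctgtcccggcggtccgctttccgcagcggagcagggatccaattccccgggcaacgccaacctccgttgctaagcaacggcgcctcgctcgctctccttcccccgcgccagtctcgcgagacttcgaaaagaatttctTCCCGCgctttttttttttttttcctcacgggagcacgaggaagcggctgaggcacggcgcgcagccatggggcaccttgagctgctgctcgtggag
*Hfm1*, chr5:106925841-106926140, minus strand: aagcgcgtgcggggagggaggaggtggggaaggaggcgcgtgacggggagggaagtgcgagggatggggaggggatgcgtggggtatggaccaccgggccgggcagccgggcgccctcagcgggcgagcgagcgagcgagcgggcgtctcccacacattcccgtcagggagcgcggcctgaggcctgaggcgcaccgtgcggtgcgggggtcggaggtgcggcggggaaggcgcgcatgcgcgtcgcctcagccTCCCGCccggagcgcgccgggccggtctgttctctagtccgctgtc
*Smc3*, chr19:53600146-53600445, plus strand: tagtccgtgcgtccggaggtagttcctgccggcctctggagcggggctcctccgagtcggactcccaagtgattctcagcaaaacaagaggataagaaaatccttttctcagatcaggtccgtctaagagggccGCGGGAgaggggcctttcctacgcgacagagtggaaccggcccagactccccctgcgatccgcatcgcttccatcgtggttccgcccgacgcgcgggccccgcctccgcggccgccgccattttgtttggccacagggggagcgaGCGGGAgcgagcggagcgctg
The motif was present at 1 place in each of the meiotic windows and at 2 places in that of *Smc3*. The *Smc1b* and *Smc3* windows were also alike in CpG, with 29 and 32 CpG and ratios of 1.08 and 1.01. *Smc3* is an example picked after the calls were seen and is not the close relative of *Smc1b*. That relative, *Smc1a*, was uncalled too, with its nearest peak 212531 bp away.

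Genes with mainly general roles in cohesion and break repair were counted by the same rule. The split from the meiotic list was made by choice and is not strict, and the cohesin list includes *Sgo2a*. Of 15 genes for cohesin and its regulators, 7 were called in at least 1 sample (46.7%, against 19.7% of all protein-coding starts), and 3 of them, *Wapl*, *Pds5a* and *Esco1*, in at least 2 *Sirt7*-/- and no WT samples (20.0%, against 6.47% of all starts). *Smc3* had a peak over its start on chromosome 19 at 53600396 in all 3 *Sirt7*-/- samples, with folds over input of 5.03, 4.26 and 5.24 in replicates 2, 3 and 4, and in WT replicate 2 with a fold of 4.99. Of 36 genes for general break repair, 15 were called in at least 1 sample (41.7%, against 19.7%). The pattern of at least 2 *Sirt7*-/- and no WT samples held for 3 of the 36 (8.33%, near the 6.47% of all starts). Of the genes with a promoter window, 9 of 10 in the cohesin list and 20 of 24 in the break repair list were CpG-rich. In the meiotic list it was 27 of 41. Among all CpG-rich protein-coding starts 36% were called, which is nearer to the 46.7% and 41.7% than 19.7% is. The cohesin and break repair lists were drawn up with earlier results of these data known, and their difference from the meiotic list was not tested. In these 2 lists, other gene starts at a peak were looked up only for *Smc3*, *Rad21* and *Stag2*. Any of the other calls may thus lie at the start of a neighbouring gene, as for *Trip13*.

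Of the meiotic genes, 6 were set against a close general relative. All 6 were uncalled, and so were 4 of the 6 relatives. Across all protein-coding starts, 19.7% were called in at least 1 sample, so most starts were uncalled. With 6 genes on each side these counts are too small to read as a contrast, and none was tested. *Rad21*, the kleisin of mitotic cohesin and the relative of *Rec8* and *Rad21l*, had a peak in all 3 *Sirt7*-/- samples and in WT replicate 4, beginning between 1977 and 1998 bp downstream of its start on chromosome 15. *Stag2*, a relative of *Stag3*, was called in *Sirt7*-/- replicate 2. *Stag1*, *Smc1a*, *Rpa1* and *Msh6*, relatives of *Stag3*, *Smc1b*, *Meiob* and *Msh5*, had no peak within 3000 bp of their start.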

How the data were processed

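H3K36ac ChIP-seq was made from 3 WT and 3 *Sirt7*-/- samples, and the 6 matching input libraries entered only through peak calling. Per the labels and the study's methods, the authors used Trim Galore 0.6.6 for trimming, Bowtie2 2.4.4.1 for alignment to mm10, and SAMtools 1.19.2 with Sambamba to drop duplicates and reads that were multiply mapped or of mapping quality under 30. MACS2 2.2.5 gave the broad peaks at a broad cutoff of 0.1, separately in each sample with its input as control. The deposited columns used were the ratio of ChIP to input (fold), -log10 p and -log10 q, each only within its list. The deposited score was not used. Replicates were not pooled, no 2 lists were identical, and the lists hold no depth.

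Each gene had 1 start, the outer end of its entry in RefSeq's GRCm38.p6 table. Strand came from RefSeq promoter windows for 17492 of 21900 protein-coding genes and from GENCODE vM39 by symbol and chromosome for 3976. The remaining genes were left out. Some relatives of members are not reported here. Coordinates of GRCm39 were not used. Of the 46 genes, 41 matched by symbol and 5 by synonym. Where a gene had several promoter windows, the one nearest to its start was used. Members and gene lists were chosen with earlier results of these data known. Genes are named if a member, a start sharing a member's peak, a relative, a partner within 1000 bp, among the 5 members with the nearest peak beyond 3000 bp, or examples of the fixed lists. The partners, the CpG classes, the motifs, the printed windows and the distances from curated starts were chosen after calls were seen. Samples were compared gene by gene with Fisher's exact test over all protein-coding starts, adjusted by Benjamini-Hochberg. Shares have exact (Clopper-Pearson) intervals, and the limit for a count of 0 is 3 counts. Alternatives were other peak thresholds, windows, starts and list lengths, a replicate block and each sample left out. With made-up peaks at 200 simulated starts, the code that assigns peaks to starts gave 100% of the calls of a direct count. Both used the same rule, so this checks the code and not whether marked starts are detected. Computation used SciPy 1.17.1, NumPy 2.4.6, statsmodels 0.14.6 and pandas 2.3.3 in Python 3.11.15, and plots used matplotlib 3.10.9.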

Additional observations from a re-analysis of the deposited data

How the results depend on the processing

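The count of 3 called members stayed between 2 and 4 in 11 of 15 alternatives. It was 1, *Ythdc2*, with a -log10 q of at least 2 (14.0% of all protein-coding starts called), and 1, *Ythdc2*, with the same minimum of -log10 p, 5.99, in every list (12.6%). It was 0 with the best 64 peaks of each list (1.41%), an alternative that leaves few peaks by its construction. Leaving out 1 sample gave from 1 to 3, and the 1 came without *Sirt7*-/- replicate 2. Leaving out any other sample could not change the count, since every called member was called in *Sirt7*-/- replicate 2. Counting either end of a gene added *Top6bl*, and counting only the start nearest to each peak removed *Trip13*. Curated transcript starts, an alternative chosen after seeing the data, again gave *Six6os1*, *Trip13* and *Ythdc2*; for 4 members the curated start lies more than 3000 bp from the one used.

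The mean difference of 0.667 members per sample, *Sirt7*-/- minus WT, moved by less than the replicate SD of 1.29 in all 16 alternatives, but it was 0 with a -log10 q of at least 2 and -0.333 with the common minimum of -log10 p. Leaving out 1 sample gave from -0.333, without *Sirt7*-/- replicate 2, to 1.17. With the replicate block, the median difference between samples of the same number was 0 (2, 0 and 0). The numbers were not taken to pair the samples, since deviations over protein-coding starts correlated only weakly. The correlations were 0.028, 0.020 and 0.008 for same-numbered samples, and ran from -0.027 to 0.009 for differently numbered ones. The count of members in at least 2 *Sirt7*-/- and no WT samples was 0 in all 15 alternatives. No member was called in at least 2 *Sirt7*-/- samples, so alternatives that only drop peaks, calls or samples could not raise this count. Only counting either end of a gene and the curated starts could have done so. Fisher's test passed 0.05 for 0 members in all 8 alternatives, which it could not do at this number of samples.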

Other observations

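Genes of the machinery that represses germline promoters outside the germ line were also examined. Of 21 such genes, 8 were called in at least 1 sample (38.1%, against 19.7% of all protein-coding starts), and 4 in at least 2 *Sirt7*-/- and no WT samples (19.0%, against 6.47%). *Rnf2* and *Ring1*, the E3 ligases of PRC1, and *Ehmt1*, an H3K9 methyltransferase, were called in each *Sirt7*-/- sample and in none of the WT samples. *E2f6* itself was called in *Sirt7*-/- replicates 2 and 3. *Cbx3*, an HP1 protein gene, and *Hdac2* were called in all 3 *Sirt7*-/- samples, with WT replicate 2 for *Cbx3* and WT replicates 2 and 3 for *Hdac2*. *Rybp* and *Ehmt2* were called in *Sirt7*-/- replicate 2. No other gene of the list, which is its larger part, had a call in any sample. Uncalled were *Mga*, *Max*, *L3mbtl2*, *Pcgf6*, *Wdr5*, *Cbx1*, *Setdb1*, *Dnmt1*, *Dnmt3a*, *Dnmt3b*, *Uhrf1*, *Trim28* and *Hdac1*. Of the 19 genes of this list with a promoter window, 17 were CpG-rich. Among all CpG-rich protein-coding starts 36% were called, so the 38.1% was near the share of that promoter class. For the pattern of at least 2 *Sirt7*-/- and no WT samples, no share of CpG-rich starts was computed. The list was not tested against other genes, and its peaks were not checked for starts of neighbouring genes.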
